A study of Mus musculus with 4 samples.

Results

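The 9 genes described here act in homologous recombination and were listed by name for that role, with no measured value in the rule. The list was chosen with earlier results of these data known. All 9 genes were found among the 24116 genes of the count table. Brca1, Bard1 and Rbbp8 act at the start of the repair, Palb2, Brca2 and Rad52 on the loading and annealing of single strands, Rad51c and Xrcc2 on the forming of the filament, and Blm is a helicase of the last step. All 9 passed the filter on low counts, with between 219 and 4409 counts in each library, so that they are among the 14896 genes tested.

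Homologous recombination repairs a broken chromosome by copying the missing stretch from an intact sister DNA molecule. The broken ends are trimmed to single strands, a protein filament forms on them and invades the intact copy, and the joint molecules are then taken apart. Mouse ESCs spend much of their cell cycle in S phase, when a sister copy is present, and are known to lean on this pathway. It is also the kind of repair by which cells without telomerase can lengthen telomeres, and the study asked whether the genome becomes less stable as telomeres shorten.

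Poly(A) RNA was sequenced from ESCs of the C57BL/6 strain, 2 libraries from wild type (WT) cells of the line N12 and 2 from Terc knockout cells of the line F35, which lack the RNA component of telomerase. The sample titles give both lines the tag G3. By the study's methods, G3 Terc-/- ESCs come from blastocysts of crosses between G2 Terc-/- mice, so that their telomeres had shortened over the generations without telomerase, while WT ESCs had the same strain background. Both were grown on feeder cells in medium with serum and leukemia inhibitory factor. With 1 line per genotype, a difference between the genotypes and a difference between the lines cannot be told apart.

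Gene counts summed to between 18047995 and 22520017 per library. Reads of Terc numbered 7 and 2 in WT, whereas each G3 Terc-/- library had 0, which allows up to 3. The WT count of 2 lies within that allowance, so these few reads do not by themselves tell the genotypes apart. Of 12 pluripotency markers, all tested, 9 were called as higher and 3 as lower in G3 Terc-/- ESCs, with summed levels of 6922 and 7047 CPM (counts scaled to a common library size) in WT and 8338 and 8701 CPM in G3 Terc-/- ESCs. The 16 markers of feeder fibroblasts summed to 340.1 and 222 CPM in WT and to 380.1 and 259.8 CPM in G3 Terc-/- ESCs, none of them at 0 in all 4 libraries, and 3 of the 15 tested were called as higher and 0 as lower. This count of higher feeder markers rested on single libraries, since it was 11 without WT replicate 1, 11 without G3 Terc-/- replicate 2, 0 without G3 Terc-/- replicate 1, 9 in the paired fit with a replicate block and 0 with DESeq2. Endoderm markers (7 genes) summed to at most 35.6 CPM in any library, with a sum in G3 Terc-/- ESCs that was 0.590 times the WT sum, with 3 called as lower and 0 as higher. The sum of 7 trophectoderm markers was 0.616 times the WT sum, with 4 of the 6 tested called as lower and 1 as higher. The last was Eomes, at 8.75 ± 0.452 CPM in WT and 27.1 ± 0.616 CPM in G3 Terc-/- ESCs (SD, n = 2 each), named after its values were seen. The part of these other cells in the values below was not tested.

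Of the 9 genes, 6 differed between the genotypes at an adjusted p under 0.05, 4 of them higher and 2 lower in G3 Terc-/- ESCs. Brca2, Rad52, Rbbp8 and Xrcc2 were higher and Brca1 and Rad51c were lower, while Bard1, Palb2 and Blm were not called. This has to be read against a comparison in which 43.4% of all genes tested were called, 21.7% as higher and 21.7% as lower. The 9 genes were also chosen with earlier results of these data known. At the paper's cutoffs, a fold change over 2 and a p under 0.05, 0 of the 9 were called and 7.83% of all genes were. The paper reports DNA repair as enriched among genes lower in Terc-/- ESCs of a later generation, G4, but not of G3. That enrichment analysis was not repeated here. The median log2 fold change of the 9 genes was 0.08, against 0.01 for all genes tested, and the median of its absolute size was 0.24 against 0.23. The values of the 2 genotypes did not overlap in 8 of the 9 genes, with Blm as the exception, and in 70.4% of all genes tested. In bulk RNA, fewer cells of a type and less RNA per cell cannot be told apart.

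**Figure D1:**
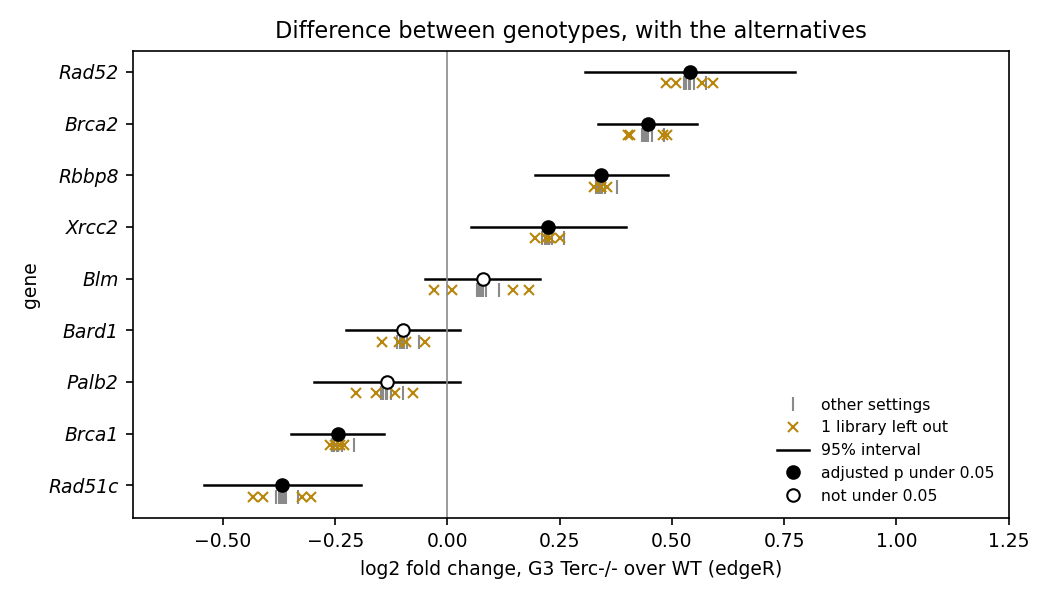
Log2 fold changes of the 9 genes, G3 Terc-/- over WT, from edgeR's quasi-likelihood test (points, filled where the adjusted p was under 0.05) with 95% intervals (lines). The marks below each line are the same values under other settings (grey bars) and with 1 library left out (crosses). Rad52, Brca2, Rbbp8 and Xrcc2 lie above 0, Brca1 and Rad51c below 0, and Blm moves from -0.03 to 0.18 with the library left out.

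The promoters of 3 of these genes hold the start site of a second gene on the opposite strand, and their sequences are given because the neighbour's counts can then be set beside the member's. Nbr1 starts 152 bases from Brca1, Dctn5 starts 61 bases from Palb2, and Tex14 starts 59 bases from Rad51c, each in the opposite direction. The promoter of Brca2, the member with the smallest p, is shown beside them. The windows run from 250 bases before to 50 bases after a start listed in RefSeq (GRCm38.p6). This is the outermost start of the gene for Brca1 and the printed Rad51c window. For the other genes with a window described here it lies inside the gene, by 34 bases in Palb2, 150 in Blm, 169 in Bard1, 324 in Brca2 and 976 in Rad52. No window of Rbbp8 or Xrcc2 is described here. Distances to the neighbours are counted from the outermost start. The windows are printed on the gene's own strand, with capitals for matches on either strand to CCAAT (the CCAAT box), TTTNNCGC (an E2F-like motif) and CCGGAAG (an ETS-like motif).
Brca1 (chr11:101551906-101552205, minus strand): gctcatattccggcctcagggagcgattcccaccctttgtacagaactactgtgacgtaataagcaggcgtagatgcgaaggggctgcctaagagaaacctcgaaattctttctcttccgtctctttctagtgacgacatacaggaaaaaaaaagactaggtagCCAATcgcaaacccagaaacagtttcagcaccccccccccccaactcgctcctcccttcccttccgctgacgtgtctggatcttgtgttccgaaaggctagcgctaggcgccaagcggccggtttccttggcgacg
Rad51c (chr11:87404905-87405204, minus strand): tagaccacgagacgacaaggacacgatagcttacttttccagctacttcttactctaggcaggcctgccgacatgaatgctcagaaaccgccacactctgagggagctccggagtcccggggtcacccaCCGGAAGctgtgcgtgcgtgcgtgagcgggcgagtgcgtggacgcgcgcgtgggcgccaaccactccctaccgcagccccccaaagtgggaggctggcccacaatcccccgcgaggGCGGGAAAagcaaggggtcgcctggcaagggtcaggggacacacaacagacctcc
Palb2 (chr7:122132897-122133196, minus strand): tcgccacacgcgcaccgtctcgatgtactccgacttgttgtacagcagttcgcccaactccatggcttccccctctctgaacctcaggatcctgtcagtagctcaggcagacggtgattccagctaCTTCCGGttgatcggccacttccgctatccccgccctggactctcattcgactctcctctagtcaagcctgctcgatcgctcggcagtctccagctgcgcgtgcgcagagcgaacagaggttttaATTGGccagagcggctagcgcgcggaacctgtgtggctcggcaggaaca
Brca2 (chr5:150522371-150522670, plus strand): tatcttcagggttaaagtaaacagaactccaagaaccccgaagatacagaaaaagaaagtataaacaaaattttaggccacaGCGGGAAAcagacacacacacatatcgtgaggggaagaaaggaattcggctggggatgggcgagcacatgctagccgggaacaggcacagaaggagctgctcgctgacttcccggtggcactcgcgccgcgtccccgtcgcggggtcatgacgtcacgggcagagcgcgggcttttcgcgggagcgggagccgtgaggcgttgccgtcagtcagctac

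The Brca1 window held 1 CCAAT box and no match to the other motifs. The Rad51c window held 1 E2F-like and 1 ETS-like match, Palb2 held 1 CCAAT box and 1 ETS-like match, and Brca2 held 1 E2F-like match. Among all 32851 promoter windows of that table, 37.4% held the CCAAT box, 5.17% the E2F-like motif and 8.86% the ETS-like motif. A second listed start of Rad51c (chr11:87404457-87404756) and the Bard1 window also held E2F-like matches, 1 and 2 of them, whereas the Rad52 and Blm windows held none. GGGCGG (the GC box, in 35.7% of windows) and TTTGAA (the CHR element, in 17.9%) were also searched. The GC box was found in the Bard1, Rad52, Blm, Palb2 and both Rad51c windows, overlapping the E2F-like match by 4 bases in the printed Rad51c window, and the CHR element was found in the Bard1 window. Matches in windows of Rbbp8 and Xrcc2 are not described. A match describes the letters of the window and not the binding of a factor.

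Levels per length placed Brca1 and Blm well above the other 7 genes in both genotypes. Brca1 stood at 29.9 ± 0.465 (SD, n = 2) CPM per kb of exon in WT ESCs, at the 81.9th percentile of the genes tested, and Blm at 24.8 ± 1.66 (SD, n = 2), at the 78.7th percentile. Bard1, which pairs with Brca1 in a ubiquitin ligase, stood at 13.1 ± 0.108 (SD, n = 2), less than Brca1 per length in every library. Brca2 followed at 10.6 ± 0.387 (SD, n = 2), Rbbp8 at 8.74 ± 0.128 (SD, n = 2) and Palb2 at 7.74 ± 0.161 (SD, n = 2) CPM per kb. Rad51c, Xrcc2 and Rad52 were the lowest, at 6.54 ± 0.407, 6.37 ± 0.168 and 6.05 ± 0.312 (SD, n = 2 each), and their order in WT ESCs lay within the spread of the libraries. In G3 Terc-/- ESCs the order changed among the lower genes. Brca2, at 14.4 ± 0.663 (SD, n = 2), stood above Bard1 at 12.3 ± 0.619 (SD, n = 2), and Rad52, at 8.80 ± 0.216 (SD, n = 2), stood above Xrcc2, Palb2 and Rad51c, of which Rad51c was the lowest at 5.08 ± 0.235 (SD, n = 2). Brca1 and Blm remained the upper pair, but their values overlapped, with 25.1 and 25.4 CPM per kb for Brca1 and 24.2 and 28.2 for Blm.

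**Figure D2:**
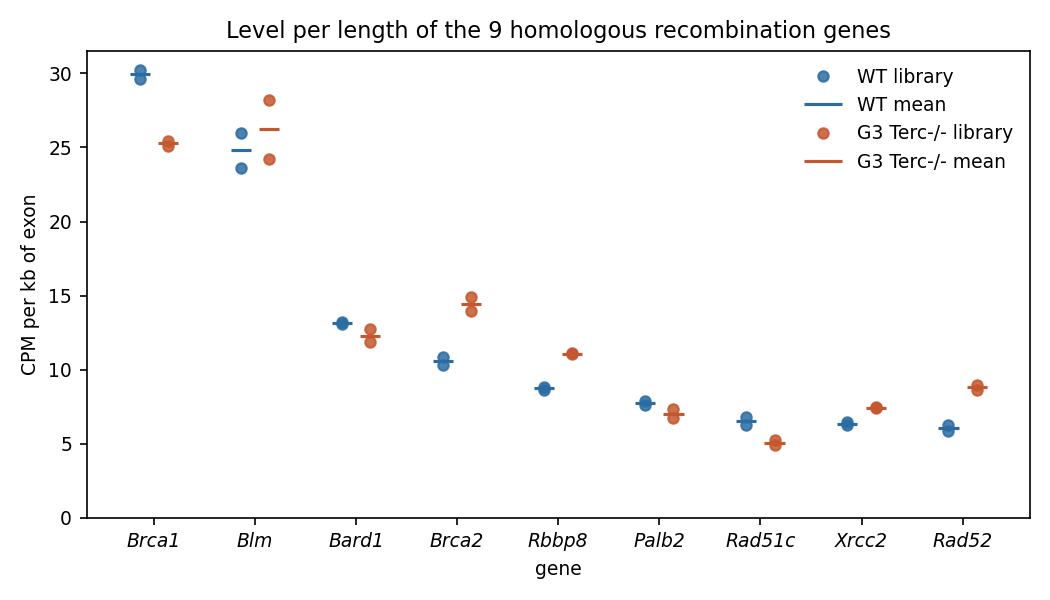
Level per length of each gene, in CPM per kb of exon on a linear axis from 0, with 1 point per library and a line for the mean of each genotype (n = 2 libraries each). Brca1 falls from 29.9 to 25.3 and Brca2 rises from 10.6 to 14.4, while the 4 points of Blm, between 23.6 and 28.2, overlap between the genotypes.

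Brca1 and Bard1 form the ubiquitin ligase that marks chromatin at breaks and favours recombination over end joining, and of this pair Brca1 was called as lower. In GRCm38 coordinates, Brca1 (gene identifier 12189, chr11:101488761-101551955, minus strand) had 195 and 199 CPM in the WT libraries and 165 and 167 CPM in the G3 Terc-/- libraries. Both G3 Terc-/- values lay below both WT values, by far more than the libraries of a genotype differed. The log2 fold change of Brca1 was -0.24 (SE, its standard error, of 0.05, with an adjusted p of 0.000130 by the quasi-likelihood test of edgeR), a fall of 15.6%. Bard1 (gene identifier 12021, chr1:71027535-71103141, minus strand) had 73.9 and 74.7 CPM in WT and 67.0 and 72.0 CPM in G3 Terc-/- libraries. Its 2 G3 Terc-/- values were below the WT values but further apart than the WT values, and its log2 fold change of -0.10 was not called (SE 0.06, edgeR adjusted p = 0.213), with a 95% interval from -0.23 to 0.03. In counts of the same library, which need no scaling between libraries, Bard1 was 0.380 and 0.376 times Brca1 in WT and 0.406 and 0.431 times Brca1 in G3 Terc-/- ESCs.

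Rbbp8, which encodes CtIP, the factor that works with the MRE11 nuclease to begin the trimming of broken ends, was higher. Rbbp8 (gene identifier 225182, chr18:11633276-11743207, plus strand) had 33.4 and 32.7 CPM in WT and 41.8 and 42.1 CPM in G3 Terc-/- libraries. The libraries of a genotype differed by less than 1 CPM, and the genotypes were well apart. Its log2 fold change was 0.34 (SE 0.07, edgeR adjusted p = 0.000174), a rise of 26.8%. Against Brca1, with which CtIP forms a complex, Rbbp8 counts were 0.172 and 0.165 times as many in WT and 0.253 and 0.252 times as many in G3 Terc-/- ESCs. An antisense transcript in the annotation shares 264 exon bases with Rbbp8, and since the strand setting of the counting is not given in the sources used here, its reads cannot be told apart.

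Brca2, which helps the filament form on single-stranded DNA, was the member with the smallest p. Brca2 (gene identifier 12190, chr5:150522297-150570147, plus strand) had 117 and 111 CPM in WT and 149.9 and 160.0 CPM in G3 Terc-/- libraries. Both G3 Terc-/- libraries stood clear of the WT libraries. Brca2 rose by 0.45 on the log2 scale (SE 0.05, edgeR adjusted p = 4.59e-09), or by 36.2% with a 95% interval from 26.2% to 47.0%. An antisense transcript of the annotation shares 41 exon bases with it. The counts of Brca2 were 0.600 and 0.557 times those of Brca1 in the WT libraries and 0.908 and 0.958 times in the G3 Terc-/- libraries, so that the ratio of these genes differed by 1.61-fold between the genotypes.

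Palb2, the bridge between the BRCA1 and BRCA2 proteins, was not called. Palb2 (gene identifier 233826, chr7:122107262-122132980, minus strand) had 30.1 and 31.0 CPM in WT and 29.0 and 26.6 CPM in G3 Terc-/- libraries. The G3 Terc-/- values were lower in both libraries but differed more between themselves than the WT values. The log2 fold change was -0.14 (SE 0.08, edgeR adjusted p = 0.180), with a 95% interval from -0.30 to 0.03, or from -18.7% to 1.97%. Palb2 was 0.258 and 0.280 times Brca2 in WT and 0.193 and 0.166 times Brca2 in G3 Terc-/- ESCs, and 0.155 and 0.156 times Brca1 in WT and 0.175 and 0.159 times Brca1 in G3 Terc-/- ESCs.

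Rad52, which anneals single strands and in mammals acts beside BRCA2, had the largest fold change of the 9 genes at the lowest counts. Rad52 (gene identifier 19365, chr6:119901722-119922827, plus strand) had 232 and 219 counts in WT and 336 and 267 counts in G3 Terc-/- libraries, or 10.6 and 9.88 CPM against 15.2 and 14.6 CPM. The genotypes did not overlap. The log2 fold change was 0.54 (SE 0.12, edgeR adjusted p = 0.000178), with a 95% interval from 0.31 to 0.77. Most of its neighbours were higher too. Of the 17 other genes tested within 1000 kb of Rad52, 14 were called as higher and 0 as lower, with a median log2 fold change of 0.56, and the tested genes within 100 kb, Wnk1 and Erc1, were higher by 0.78 and 0.80. On the whole of chromosome 6, 235 of 691 genes tested were called as higher and 214 as lower. Whether the rise of Rad52 is separate from that of its surroundings was not tested.

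Rad51c and Xrcc2 encode proteins of one complex, BCDX2, which helps the filament form, and they were called in opposite directions. Rad51c (gene identifier 114714, chr11:87376645-87404954, minus strand) had 26.9 and 29.4 CPM in WT and 21.1 and 22.6 CPM in G3 Terc-/- libraries. Both G3 Terc-/- libraries were below both WT libraries, and Rad51c fell by 0.37 on the log2 scale (SE 0.09, edgeR adjusted p = 0.000547), or by 22.5%. Xrcc2 (gene identifier 57434, chr5:25689814-25705797, minus strand) had 22.1 and 22.9 CPM in WT and 26.2 and 26.4 CPM in G3 Terc-/- libraries. The genotypes did not overlap, but the difference was the smallest of the 6 called, a log2 fold change of 0.22 (SE 0.09, edgeR adjusted p = 0.0305). It was not called with any 1 of the 4 libraries left out (adjusted p from 0.0574 without G3 Terc-/- replicate 2 to 0.209 without WT replicate 1, edgeR) nor by DESeq2 (adjusted p = 0.224). Xrcc2 had 0.820 and 0.779 counts per count of Rad51c in WT and 1.24 and 1.17 in G3 Terc-/- ESCs. Of the other genes of BCDX2, Rad51b had a log2 fold change of -0.03 and was not called (edgeR adjusted p = 0.899), and Rad51d fell by 0.34 (edgeR adjusted p = 0.00249, or 0.0945 without WT replicate 2).

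Blm, the helicase that dissolves joined DNA molecules together with TOP3A, RMI1 and RMI2, was the member whose libraries overlapped. Blm (gene identifier 12144, chr7:80454993-80535148, minus strand) had 117 and 128 CPM in WT and 119.9 and 139.5 CPM in G3 Terc-/- libraries. The second library of each genotype was the higher one, and the spread within a genotype was larger than the difference between the means. The log2 fold change was 0.08 (SE 0.06, edgeR adjusted p = 0.331) with a 95% interval from -0.05 to 0.21. It was 0.18 and called without G3 Terc-/- replicate 1 (edgeR adjusted p = 0.00424) and -0.03 and not called without G3 Terc-/- replicate 2 (edgeR adjusted p = 0.703).

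The 3 genes that start beside a member on the opposite strand all had a log2 fold change below 0, as the members did, but Nbr1 was not called. Whether any of them differed from its member was not tested. Tex14, a gene of germ cell division bridges next to Rad51c, had 709 and 807 counts in WT and 620 and 552 counts in G3 Terc-/- libraries, or 34.4 ± 2.78 and 29.1 ± 1.62 CPM (SD, n = 2 each). Tex14 was lower by 0.25 on the log2 scale (SE 0.08, edgeR adjusted p = 0.0118), in the direction of Rad51c, but was not called without WT replicate 2 (edgeR adjusted p = 0.275), without G3 Terc-/- replicate 1 (0.0782) or by DESeq2 (0.108). Dctn5, a dynactin subunit next to Palb2, was lower by 0.18 (SE 0.07, edgeR adjusted p = 0.0407) where Palb2 had -0.14, and its call was lost without WT replicate 1 (edgeR adjusted p = 0.356), without WT replicate 2 (0.0594), without G3 Terc-/- replicate 2 (0.173) and with DESeq2 (0.171). Nbr1, an autophagy receptor next to Brca1, had a log2 fold change of -0.07 (SE 0.05, edgeR adjusted p = 0.303) and was not called, where Brca1 fell by 0.24.

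Brca1 and Rad51c lie on chromosome 11, where 65.2% of the genes tested had a log2 fold change below 0. Of the 71 other genes tested within 1000 kb of Brca1, 22 were called as lower and 4 as higher, with a median log2 fold change of -0.16. Around Rad51c, 13 of 28 genes were called as lower and 1 as higher, also with a median of -0.16. On the whole of chromosome 11, 400 of 1233 genes tested were called as lower and 128 as higher, with a median of -0.10. Whether the surroundings of Brca1 and Rad51c differed from the rest of that chromosome was not tested. The medians around Brca1, Rad51c and Rad52 had the sign of the member. Around Rbbp8 the median of 13 genes was -0.15 against 0.34 for Rbbp8. Around Brca2 the median of 9 genes was 0.09, and Fry, the nearest tested gene called there, was higher by 0.55. Around Xrcc2 it was -0.06 over 10 genes, around Palb2 -0.12 over 12, around Blm 0.02 over 40 and around Bard1 0.53 over 4.

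**Figure D3:**
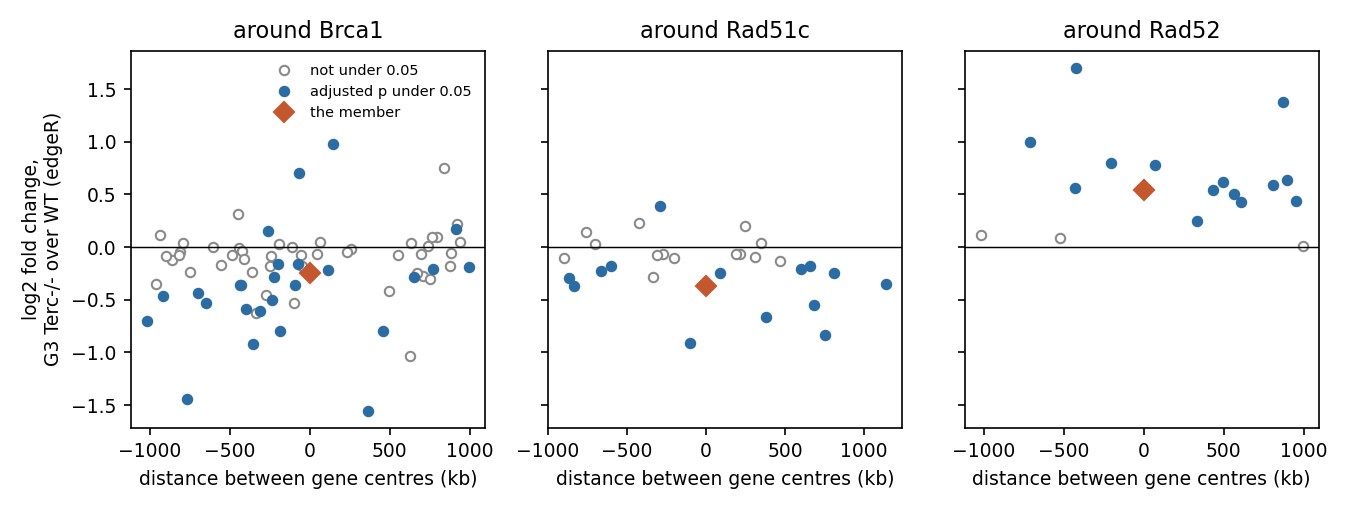
Log2 fold changes (edgeR, G3 Terc-/- over WT) of the genes tested within 1000 kb of Brca1, Rad51c and Rad52, against the distance between gene centres in kb, with the member as a diamond. Around Rad52 14 of 17 neighbours are called as higher and none as lower, and around Brca1 and Rad51c 22 of 71 and 13 of 28 are called as lower. On all of chromosome 6, 235 of 691 genes are called as higher, and on all of chromosome 11, 400 of 1233 are called as lower.

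A further 50 genes of the pathway, written from general knowledge, were described beside the 9, and 19 of them (38.0%) were called, 8 as higher and 11 as lower, against 43.4% of all genes. Their median log2 fold change was -0.02, and 0 of the 50 passed the paper's cutoffs. The number called as higher rested on both WT libraries, since it was 5 without WT replicate 1 and 5 without WT replicate 2, and DESeq2 called 2.

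Of 6 genes for the trimming of ends, 0 were called as higher and 1 as lower. This was Samhd1, whose product recruits CtIP to breaks, with a log2 fold change of -0.16 (edgeR adjusted p = 0.0378, and not called without WT replicate 1 at 0.205, without WT replicate 2 at 0.165, without G3 Terc-/- replicate 1 at 0.135 or with DESeq2 at 0.125). The number called as lower was 0 without WT replicate 1 and 2 without G3 Terc-/- replicate 2. Of the 3 subunits of RPA, which coats single strands first, 1 was called, Rpa3, which fell by 0.91 on the log2 scale, and 2 were called as lower without G3 Terc-/- replicate 1.

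Of 11 genes in the list of filament formation, 2 were called as higher and 2 as lower. The number called as higher was 1 without WT replicate 1 or WT replicate 2 and 0 without G3 Terc-/- replicate 2, and the number called as lower was 1 without WT replicate 2 and 4 without G3 Terc-/- replicate 2. Rad51d, described above, and Sfr1, of the SWI5-SFR1 complex, were lower, the latter by 0.20. Swsap1, of the complex with ZSWIM7, had a log2 fold change of 0.32 (edgeR adjusted p = 0.0157), which was not called without WT replicate 1 (0.157), without G3 Terc-/- replicate 2 (0.142) or with DESeq2 (0.161).

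Among 10 partners of BRCA1 and BRCA2, 2 were called as higher and 4 as lower, and the former number was 1 without WT replicate 2 or without G3 Terc-/- replicate 1 and 0 with DESeq2. Sem1, a small acidic protein that binds BRCA2, fell by 0.58 on the log2 scale, and Uimc1, the ubiquitin-binding RAP80 subunit of the BRCA1-A complex, fell by 0.29. Nucks1, 1 of the 2 called as higher, is a chromatin protein related to RAD51AP1 and only loosely placed in a list of BRCA1 and BRCA2 partners. Nucks1 rose by 0.29, or by 0.28 with DESeq2, where it was not called (adjusted p = 0.0552).

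Of 20 helicases and genes of the last steps, 4 were called as higher and 3 as lower. The number called as higher was 2 without WT replicate 1 and 2 with DESeq2, and the number called as lower was 1 without G3 Terc-/- replicate 1. Rtel1, a helicase that takes apart D-loops and acts at telomeres, rose from 102 ± 1.64 CPM to 133 ± 1.68 CPM (SD, n = 2 each), by 0.38 on the log2 scale (edgeR adjusted p = 1.38e-07). Recql, a RecQ helicase related to Blm, rose by 0.31. Slx1b, the catalytic subunit of a junction nuclease, fell by 0.92, the largest fall of the 50 genes, from 30.0 ± 1.42 CPM to 15.9 ± 1.32 CPM (SD, n = 2 each).

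**Figure D4:**
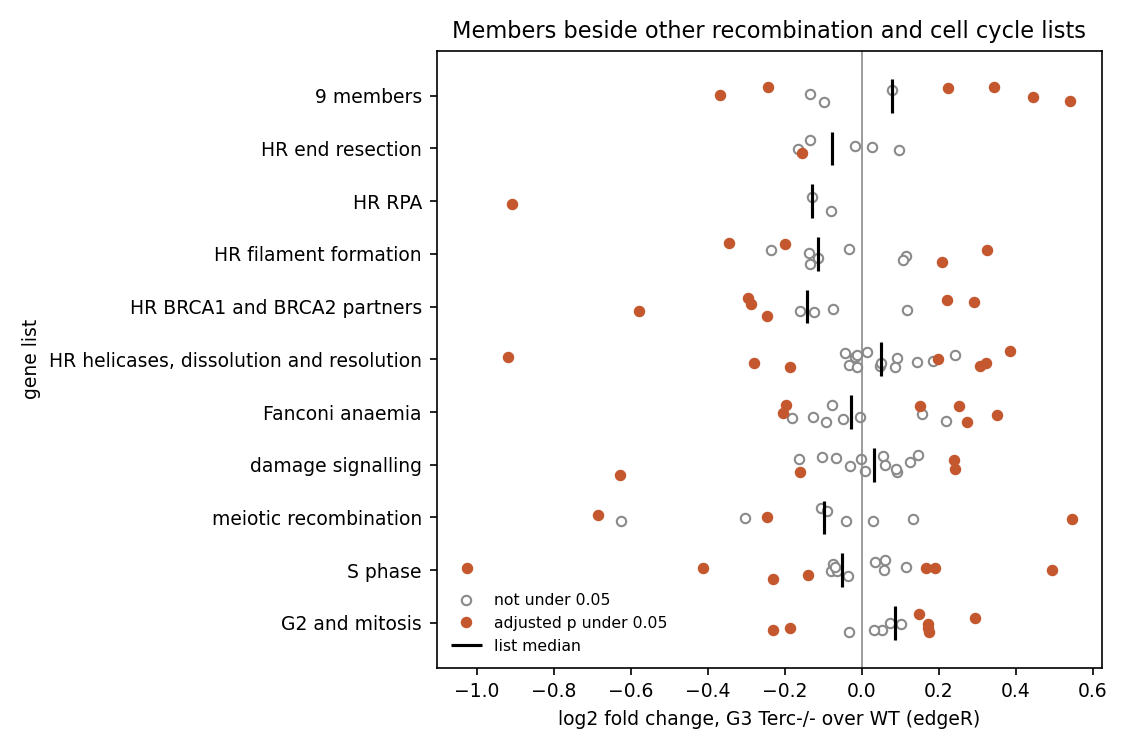
Log2 fold changes (edgeR, G3 Terc-/- over WT) of the 9 genes and of the tested genes of 10 other lists, 1 point per gene, with HR for homologous recombination, filled where the adjusted p was under 0.05, with the list median as a bar. Called genes stand on both sides of 0 in 9 of the 11 rows, and the exceptions are end resection and RPA, with 1 called gene each.

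Neighbouring pathways were mixed as well, with 27 of 68 genes tested in 5 lists called, 15 as higher and 12 as lower. The number called as higher was 7 without WT replicate 1 and 7 without WT replicate 2, and the number called as lower was 5 without WT replicate 2. Of the 14 Fanconi anaemia genes, which repair crosslinks with the help of Brca2, Palb2 and Rad51c, 4 were called as higher and 2 as lower. The number called as higher was 2 without WT replicate 1 or WT replicate 2 or with DESeq2, and the number called as lower was 0 without WT replicate 1 or WT replicate 2, without G3 Terc-/- replicate 2 or with DESeq2. Ube2t, the ubiquitin-conjugating enzyme of that pathway, rose by 0.35 and Fancm by 0.27, and Fance was at -0.20, a call that was lost without WT replicate 1, WT replicate 2 or G3 Terc-/- replicate 2 and with DESeq2 (adjusted p between 0.0932 and 0.118, edgeR and DESeq2). In the list of damage signalling, 2 of 16 genes tested were called as higher and 2 as lower, the latter number being 1 without WT replicate 1 or WT replicate 2, without G3 Terc-/- replicate 2 or with DESeq2. Trp53bp1, which opposes Brca1 in the choice of pathway, fell by 0.63, whereas its partner Rif1 rose by 0.24 and H2ax by 0.24. Of the 10 genes of meiotic recombination tested, 1 was called as higher and 2 as lower, the latter number being 1 without WT replicate 2, without G3 Terc-/- replicate 1 or with DESeq2. Mnd1, of the HOP2-MND1 complex, fell by 0.68 and Hormad1, a protein of the meiotic chromosome axis, rose by 0.55. The other gene of this list called as lower was Tex14, the gene of germ cell division bridges described above. Its lost call accounts for the lower number in those settings.

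Recombination genes are expressed with the cell cycle, so lists of S phase and of G2 and mitosis were measured beside them. Of 16 S phase genes, 3 were called as higher and 4 as lower, with a median log2 fold change of -0.05. Ccne1, a cyclin of S phase entry, fell by 1.03 and Cdc6, a licensing factor, by 0.41, while Mcm2, a subunit of the replicative helicase, rose by 0.49. Of 12 genes of G2 and mitosis, 5 were called as higher and 2 as lower, with a median of 0.09. Cenpf, a kinetochore protein, rose by 0.29. The numbers called as higher came to 1 in each of these lists without WT replicate 1 and also without WT replicate 2. Top2a and Bub1 had log2 fold changes of -0.19 and -0.23, which were not called without WT replicate 2 (adjusted p = 0.0961 and 0.0524 from edgeR). The part of the cell cycle in the values of the 9 genes was not tested.

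By chromosome, the 59 recombination genes did not all stand against the same background. On chromosome 6, 235 of 691 genes tested were called as higher and 214 as lower. The paper reports a loss of part of this chromosome in G3 Terc-/- ESCs, whose part in the values was not tested. All 5 recombination genes there were called, with Rad52, Recql and Rad51ap1 higher and Rpa3 and Sem1 lower. Of these, Rad51ap1 was not called without WT replicate 2 (edgeR adjusted p = 0.246), without G3 Terc-/- replicate 2 (0.224) or by DESeq2 (0.165). Rpa3 and Sem1 lie near each other on chromosome 6, with starts at bases 8.26e+06 and 6.56e+06. Whether their falls are separate from each other or from their surroundings was not tested. On the other chromosomes 20 of 54 recombination genes were called, or 37.0%, against 42.3% of all genes there. On chromosome 11, 400 of 1233 genes were called as lower and 128 as higher, and the median log2 fold change of -0.10 was the lowest among the 19 autosomes and the X chromosome. All 11 recombination genes on chromosome 11 had a log2 fold change below 0, with a median of -0.19, and 5 of them were called as lower, namely Brca1, Rad51c, Rad51d, Brip1 and Fignl1. Without WT replicate 2 the last 3 of these were not called (edgeR adjusted p between 0.0945 and 0.146), and Fignl1 was not called without G3 Terc-/- replicate 1 (0.133) nor Brip1 by DESeq2 (0.0709). The chromosomes were compared after the values had been seen.

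**Figure D5:**
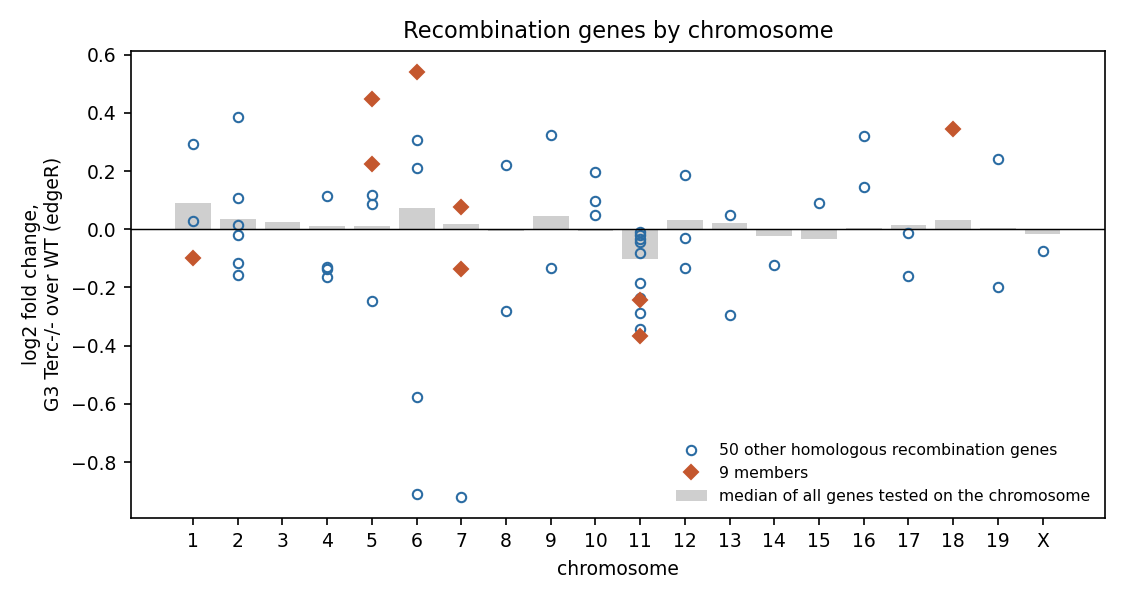
Log2 fold changes (edgeR, G3 Terc-/- over WT) of the 9 genes (diamonds) and the 50 other recombination genes (circles) by chromosome, over bars for the median of all genes tested on that chromosome. All 11 points of chromosome 11 lie below 0, where the median of all genes is -0.10, and the 5 points of chromosome 6 lie between -0.91 and 0.54.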

How the data were processed

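RNA-seq libraries of WT and G3 Terc-/- ESCs, 2 per genotype, were analysed. The deposited gene table holds raw counts per NCBI gene identifier without normalization. Per the labels, the authors trimmed reads with Trim Galore, aligned them to mm10 with STAR and counted them with featureCounts, and versions and strand setting are not given in the sources used here. A second table of raw counts per transposable element copy was not used here. Symbols and positions were taken from RefSeq for GRCm38.p6, which is the build of mm10, and 24061 of 24116 identifiers were matched. Exon lengths were the merged exons of GENCODE M21 basic transcripts, found for 14095 of the 14896 genes tested, and the authors' own gene models may differ.

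Genes were filtered with filterByExpr, scaled by TMM and tested with edgeR 4.0.16 in R 4.3.3 (quasi-likelihood, robust, genotype as the only term), with Benjamini-Hochberg adjustment over all genes tested. The paper's Cufflinks step needs reads and was not repeated. Standard errors were the size of the log2 fold change over the square root of F, and 95% intervals used the t quantile of the fit. CPM values use TMM-scaled library sizes. The libraries of a genotype differed by more than sampling noise, with chi-square values per gene of 2.48 (WT) and 3.76 (G3 Terc-/-). They are called biological replicates of a line in the methods, so that p-values measure only the spread between these libraries. With 2 libraries against 2, an exact permutation test of a single value cannot go below 0.333, so none was used.

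The members and lists were chosen with earlier results of these data known. The text names the 9 members, Terc, up to 3 genes with the smallest p among the called genes of each list, and neighbours that overlap a member or start within 1000 bases of it on the other strand. Genes named beyond that rule (Rad51b, Eomes, Brip1, Fignl1, Rad51ap1, Fry, Wnk1 and Erc1), and their alternatives, were chosen after their values were seen. Alternatives were DESeq2 1.42.0, its size factors in edgeR, no filter, at least 50 counts in 2 libraries, the replicate number as a block, library totals, TMM without chromosome 6 and each library left out. The fit was also run on simulated counts drawn with the dispersions estimated from these libraries. Such a run cannot show whether those dispersions hold, so it lends no support to the calls. Figures were drawn with matplotlib 3.10.9.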

Additional observations from a re-analysis of the deposited data

How the results depend on the processing

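Brca1, Brca2, Rbbp8, Rad51c and Rad52 kept their direction and their call under all 11 alternatives run, and Bard1 and Palb2 were not called under any of the 11. Xrcc2 kept its direction and lost its call in 5, and the only change of direction among the 9 genes was that of Blm, at -0.0306 without G3 Terc-/- replicate 2, against 0.181 and a call without G3 Terc-/- replicate 1. Rad51b, at -0.03 in the text, ranged from -0.14 to 0.0829 when 1 library was left out, and was above 0 without WT replicate 1 and, at 0.00914, without G3 Terc-/- replicate 2. The number of members called was between 5 and 6. Of all genes, 3231 were called as higher, against 1922 with DESeq2, and the 703 higher and 464 lower genes at the paper's cutoffs came to 328 and 298 among genes with at least 50 counts in 2 libraries. DESeq2 called 2 of the 50 other recombination genes as higher in place of 8. With each library left out in turn this number lay between 5 and 8, and for the 5 neighbouring lists between 7 and 15 higher and between 5 and 13 lower. With a library left out, the lone library was taken to vary like those of the other genotype. A paired fit, with the number as a replicate block, called 4 members as higher and 2 as lower and changed the call of none of the 9, while 9 feeder markers were called as higher in place of 3. The numbers carried little shared deviation (a correlation of 0.112 over genes). The causes were not tested.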
